A study of Mus musculus with 11 samples.

Results

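The ID proteins and their E-protein partners are encoded by 7 genes, Id1, Id2, Id3, Id4, Tcf3, Tcf4 and Tcf12, which were taken by name and Entrez gene identifier from the 27179 genes of the count tables. Tcf3 denotes here the gene of E2A (the proteins E12 and E47), Tcf4 that of E2-2 and Tcf12 that of HEB. They are distinct from the HMG-box factors of the Wnt pathway, Tcf7l1 and Tcf7l2, which in older usage also carried the names Tcf3 and Tcf4. The 4 Id genes and 3 E-protein genes all passed the filter on low counts.

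E proteins are widely expressed basic helix-loop-helix transcription factors, which bind E-box sequences in DNA as dimers with one another or with tissue-restricted partners. ID proteins have the helix-loop-helix that forms the dimer but no basic region that contacts DNA, so an E protein held by an ID protein cannot bind. Id genes are known targets of BMP signalling, and ID proteins are known for restraining differentiation in many tissues. In the mammary gland Id4 is known as a gene of basal cells and Id2 for its part in lobuloalveolar development.

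RNA-seq was performed on 11 libraries from the mouse mammary gland, in order to compare the epithelial populations with cells in culture. Cells of virgin, wild type FVB/N females (8 weeks in the labels, 8 to 10 weeks in the series design) were sorted into MaSC/basal (CD24+CD29hi, enriched for mammary stem cells), LP (CD24+CD29loCD61+, luminal progenitor-enriched) and ML (CD24+CD29loCD61-, mature luminal-enriched), with 3 independent samples each. Mammosphere cells (MaSC/basal cells cultured for 1 week) and the Comma Dβ line (labelled CommaD-βGeo, Balb/c, mid-pregnancy), an established cell line from the mouse mammary epithelium, had 1 library each and therefore no replicate check. Each gate enriches for a cell type and does not isolate it. The name submitted for MaSC/basal replicate 1 includes "p53", but the labels give wild type, and that of the mammosphere library may join several cultures. MaSC/basal replicate 1, LP replicate 1, ML replicate 1 and the mammosphere library were labelled as batch 1, MaSC/basal replicates 2 and 3, LP replicate 2 and ML replicate 2 as batch 2, and LP replicate 3, ML replicate 3 and Comma Dβ as batch 3.

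Between 19958838 and 75795034 reads were counted per library. Expression is given as CPM, the counts of a gene scaled to a common library size, after TMM scaling for RNA composition, or as RPKM (CPM per kilobase of the exon length in the count tables) where genes are compared with each other. The sorted populations expressed their defining markers. Krt5, Krt14, Trp63 and Acta2, which mark basal cells, summed to 12416.5 to 16377.5 CPM in MaSC/basal libraries and to 46.2 to 312 CPM in luminal ones, the luminal markers Krt8, Krt18, Epcam and Cldn4 to 11308.9 to 14223.5 CPM in luminal libraries and 1014 to 1185 CPM in MaSC/basal ones. ML replicate 3 stood apart in basal markers, with 141 CPM of Krt5 against 13.2 and 14.6 CPM in the other ML libraries. ML replicate 2 stood apart in Kit, a marker of luminal progenitors, with 298 CPM against 164 and 148 CPM. Comma Dβ cells, although epithelial by their label, had 159 CPM of the luminal markers in sum and 16.4 CPM of Krt8, with 1493 CPM of the basal markers.

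The Id genes resemble each other in the stretch that encodes the dimer-forming helices, which matters for reads that might be shared. Below are the 60 coding bases in which the 4 genes are most alike, found in exon 1 of each gene in GENCODE transcripts (GRCm38). They encode part of the second helix. Capitals mark the 42 bases that are identical in all 4 genes, and every sequence runs 5′ to 3′. Id2 lies at chr12:25095774-25095833 (minus strand), Id1 at chr2:152736587-152736646 (plus), Id3 at chr4:136144071-136144130 (plus) and Id4 at chr13:48261762-48261821 (plus).
Id2: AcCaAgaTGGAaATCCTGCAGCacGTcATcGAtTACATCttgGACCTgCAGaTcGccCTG
Id1: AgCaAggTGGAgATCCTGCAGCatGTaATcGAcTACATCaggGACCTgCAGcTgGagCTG
Id3: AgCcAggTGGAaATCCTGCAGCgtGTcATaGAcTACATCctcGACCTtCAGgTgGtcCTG
Id4: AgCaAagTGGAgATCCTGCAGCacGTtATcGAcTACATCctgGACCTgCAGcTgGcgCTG
In this stretch Id1 and Id4 shared 54 of 60 bases (90.0%), the most of any pair, and Id2 and Id3 shared 47 (78.3%), the fewest.

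The same search between Tcf3 and Tcf12 found 60 bases at the end of the basic helix-loop-helix region, across an exon junction. Capitals mark the 50 identical bases (83.3%). The Tcf3 stretch lies at chr10:80412827-80412857 (exon 18) and chr10:80410246-80410274 (exon 19), and that of Tcf12 at chr9:71856305-71856335 (exon 19) and chr9:71849897-71849925 (exon 20), all on the minus strand.
Tcf3: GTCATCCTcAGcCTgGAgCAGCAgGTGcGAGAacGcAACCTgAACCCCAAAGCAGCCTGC
Tcf12: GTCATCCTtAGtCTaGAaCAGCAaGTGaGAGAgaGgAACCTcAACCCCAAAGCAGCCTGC
Over whole transcripts, the longest identical run between any pair of Id genes was 19 bases, between Id2 and Id3, and the longest among all pairs was 47 bases, between Tcf4 and Tcf12. Both are shorter than a read of these libraries, so a whole read cannot match a pair of these genes exactly. Id4 overlaps the span of the long noncoding gene A330033J07Rik, which had 487 counts over all 11 libraries, and the reads of the 2 genes cannot be told apart by strand.

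The Id genes differed in where among the sorted cells each was highest. Id4 was highest in MaSC/basal cells, Id1 in LP cells and Id3 in ML cells, whereas Id2 was lowest in ML cells.

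**Figure D1:**
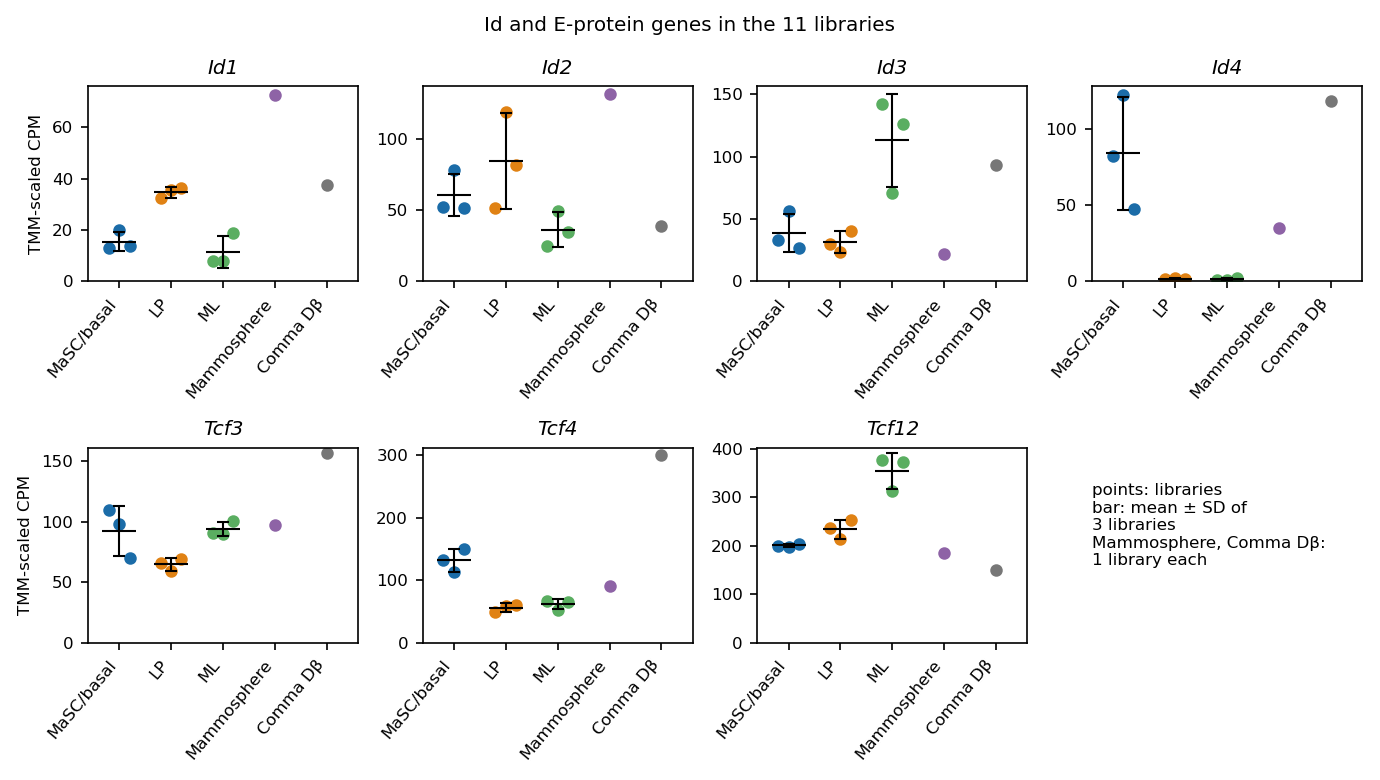
TMM-scaled CPM (y axis, from 0) of the 7 genes in each library, with 1 panel per gene. Points are libraries, and bars are the mean ± SD of 3 libraries for MaSC/basal, LP and ML. Id4 lies between 47.5 and 122 CPM in MaSC/basal cells and at or below 2.21 CPM in all 6 luminal libraries.

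Id4 (chr13:48261116-48266028) had 82.2, 122 and 47.5 CPM in MaSC/basal replicates 1 to 3. The LP libraries had 1.37, 2.21 and 1.60 CPM and the ML libraries 0.989, 0.863 and 2.00 CPM, from 30 to 118 reads each. The lowest MaSC/basal library was thus far above the highest luminal one. The MaSC/basal mean of Id4 was 84.0 ± 37.4 CPM, that of LP cells 1.73 ± 0.431 CPM and that of ML cells 1.29 ± 0.625 CPM (SD, n = 3). Id4 was 47.5-fold higher in MaSC/basal than in LP cells (log2 fold change 5.57 ± 0.43 SE, adjusted p = 3.64e-06, edgeR quasi-likelihood test with Benjamini-Hochberg adjustment) and 69.7-fold higher than in ML cells (6.12 ± 0.45, adjusted p = 2.06e-06). LP and ML cells overlapped, with a log2 difference of 0.55 ± 0.43 (adjusted p = 0.356). The 2 luminal libraries with the most Id4 in their groups, LP replicate 2 and ML replicate 3, also had the most Krt5 in theirs (22.3 and 141 CPM). The part of basal cells in these low Id4 values was not tested. As in any bulk sample, fewer cells of a type and less RNA per cell cannot be told apart.

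Id1 (chr2:152736251-152737410) had 32.3, 35.5 and 36.3 CPM in the LP libraries, the closest agreement among replicates of any Id gene. MaSC/basal replicates had 12.8, 19.8 and 13.8 CPM, and ML replicates 7.83, 7.87 and 18.7 CPM. All LP libraries were above all others from sorted cells, while MaSC/basal and ML libraries overlapped. Mean levels were 34.7 ± 2.10 CPM in LP, 15.5 ± 3.78 in MaSC/basal and 11.5 ± 6.24 in ML cells. Id1 was 2.24-fold lower in MaSC/basal than in LP cells (log2 fold change -1.17 ± 0.32, adjusted p = 0.0103) and 3.06-fold higher in LP than in ML cells (1.61 ± 0.33, adjusted p = 0.00552). The difference between MaSC/basal and ML cells did not pass the test (0.45 ± 0.32, adjusted p = 0.252). ML replicate 3, the library with more basal markers, had the highest Id1 of its group. Its 18.7 CPM was above the MaSC/basal mean of 15.5 CPM, and the part of basal cells in it was not tested. Without ML replicate 3, the log2 difference between MaSC/basal and ML cells was 0.97 with an adjusted p of 0.00303.

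Id2 (chr12:25093799-25096092) varied most within LP cells, with 51.7, 119 and 81.7 CPM. MaSC/basal libraries had 52.4, 78.0 and 51.6 CPM, and ML libraries 24.7, 49.3 and 34.9 CPM. Every ML library was below every MaSC/basal and LP library, and MaSC/basal and LP overlapped. Id2 averaged 84.2 ± 33.7 CPM in LP, 60.7 ± 15.0 in MaSC/basal and 36.3 ± 12.4 in ML cells. It was 2.32-fold higher in LP than in ML cells (1.21 ± 0.33 on the log2 scale, adjusted p = 0.0202). This call was lost without LP replicate 2 (0.90, adjusted p = 0.0717), without ML replicate 1 (1.00, 0.0713) or without ML replicate 3 (1.18, 0.0568). Between MaSC/basal and ML cells the log2 difference of 0.74 ± 0.33 did not pass the test (adjusted p = 0.0756), but with library batch as a replicate block it was 0.68 ± 0.23 and passed (adjusted p = 0.0328). MaSC/basal and LP cells gave -0.47 ± 0.32 (adjusted p = 0.238). LP replicate 2, which had the most Id2, also had the highest sum of fibroblast markers among the sorted libraries (1375.8 CPM, against 285 CPM in LP replicate 1, which had the least Id2 of the LP libraries). In ML cells the order was reversed, with the highest sum (929 CPM) in replicate 1, lowest in Id2, and the lowest (409 CPM) in replicate 2, highest in Id2. MaSC/basal replicate 3 had the highest sum of its group (863 CPM) and the lowest Id2. The part of fibroblasts in the Id2 level was not tested.

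Id3 (chr4:136143822-136145392) was the Id gene of ML cells, with 142, 71.1 and 126 CPM. MaSC/basal libraries had 32.9, 56.1 and 27.0 CPM and LP libraries 29.7, 23.8 and 40.7 CPM. ML libraries did not overlap with either of the other groups, which overlapped with each other. The means were 113 ± 37.2 CPM in ML, 38.7 ± 15.4 in MaSC/basal and 31.4 ± 8.60 in LP cells. Id3 was 2.92-fold lower in MaSC/basal than in ML cells (-1.55 ± 0.33, adjusted p = 0.00254) and 3.61-fold lower in LP than in ML cells (-1.85 ± 0.34, adjusted p = 0.00351), with 0.30 ± 0.33 between MaSC/basal and LP cells (adjusted p = 0.452). The lowest ML value was that of replicate 2, the library with more Kit. Id1 and Id3 are also known as genes of endothelial cells. Endothelial markers (Pecam1, Cdh5, Kdr, Tek and Emcn) summed to 7.26 to 37.4 CPM in ML, 10.5 to 25.7 CPM in LP and 43.1 to 89.3 CPM in MaSC/basal libraries. The part of endothelial cells in the Id1 and Id3 levels, and that of progenitors in ML replicate 2, was not tested.

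Among the E-protein genes, Tcf4 was higher in MaSC/basal than luminal cells, Tcf12 was highest in ML cells, and Tcf3 was lowest in LP cells. No difference among them reached that of Id4.

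Tcf4 (chr18:69343429-69687967) had 133, 113 and 150.2 CPM in MaSC/basal libraries. LP libraries had 48.8, 59.5 and 61.3 CPM, and those of ML cells 66.8, 53.0 and 65.7 CPM. All MaSC/basal libraries were above all luminal libraries, and the luminal groups overlapped. Mean Tcf4 was 132 ± 18.6 CPM in MaSC/basal cells, against 56.5 ± 6.76 CPM for LP and 61.8 ± 7.69 CPM for ML. Tcf4 was 2.33-fold higher in MaSC/basal than in LP cells (1.22 ± 0.16, adjusted p = 9.33e-05) and 2.14-fold higher than in ML cells (1.10 ± 0.16, adjusted p = 0.000175), while LP and ML cells differed by -0.13 ± 0.15 (adjusted p = 0.561). Pericyte markers (Pdgfrb, Rgs5, Cspg4, Abcc9 and Kcnj8) moved in the same direction, with sums of 33.3 to 48.9 CPM in MaSC/basal against 3.95 to 14.1 CPM in luminal libraries, as did the endothelial sums above and the cycling markers Mki67, Top2a, Ccnb1 and Cdk1, with 441 to 562 CPM in sum against 64.6 to 86.4 CPM. Their part in the Tcf4 and Id4 differences was not tested.

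Tcf12 (chr9:71844252-72111893), the most abundant of the 3 E-protein genes per kilobase in every sorted library, had 377, 312 and 373 CPM in ML libraries. LP libraries had 236, 213 and 253 CPM, and MaSC/basal libraries 199.7, 197 and 204 CPM. The 3 groups did not overlap. The means were 354 ± 36.2 CPM in ML, 234 ± 19.8 in LP and 200.4 ± 3.63 in MaSC/basal cells. Tcf12 was 1.77-fold lower in MaSC/basal than in ML cells (-0.82 ± 0.13, adjusted p = 0.000387) and 1.51-fold lower in LP than in ML cells (-0.60 ± 0.13, adjusted p = 0.00786). Although MaSC/basal and LP libraries did not overlap, their difference of -0.22 ± 0.13 did not pass the test (adjusted p = 0.17).

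Tcf3 (chr10:80409541-80433976) had 66.4, 59.2 and 69.2 CPM in LP libraries. The MaSC/basal libraries had 109, 98.3 and 69.7 CPM, the last just above the LP range, and the ML libraries 90.8, 90.2 and 101 CPM. Mean levels were 64.9 ± 5.17 CPM in LP, 92.5 ± 20.5 in MaSC/basal and 93.9 ± 5.96 in ML cells. Tcf3 was 1.43-fold higher in MaSC/basal than in LP cells (0.51 ± 0.17, adjusted p = 0.0227) and 1.45-fold lower in LP than in ML cells (-0.53 ± 0.17, adjusted p = 0.0337). MaSC/basal and ML cells overlapped and gave -0.02 ± 0.16 (adjusted p = 0.918). The first call was lost without any 1 of MaSC/basal replicates 1 and 2 and LP replicates 1 and 2 (0.38, 0.47, 0.51 and 0.43, adjusted p = 0.0888, 0.0655, 0.0557 and 0.0841 in that order). The call against ML cells was lost without any 1 of LP replicates 1, 2 and 3 and ML replicates 1 and 3 (-0.53, -0.45, -0.57, -0.56 and -0.48, adjusted p = 0.0865, 0.125, 0.06, 0.0744 and 0.0925).

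**Figure D2:**
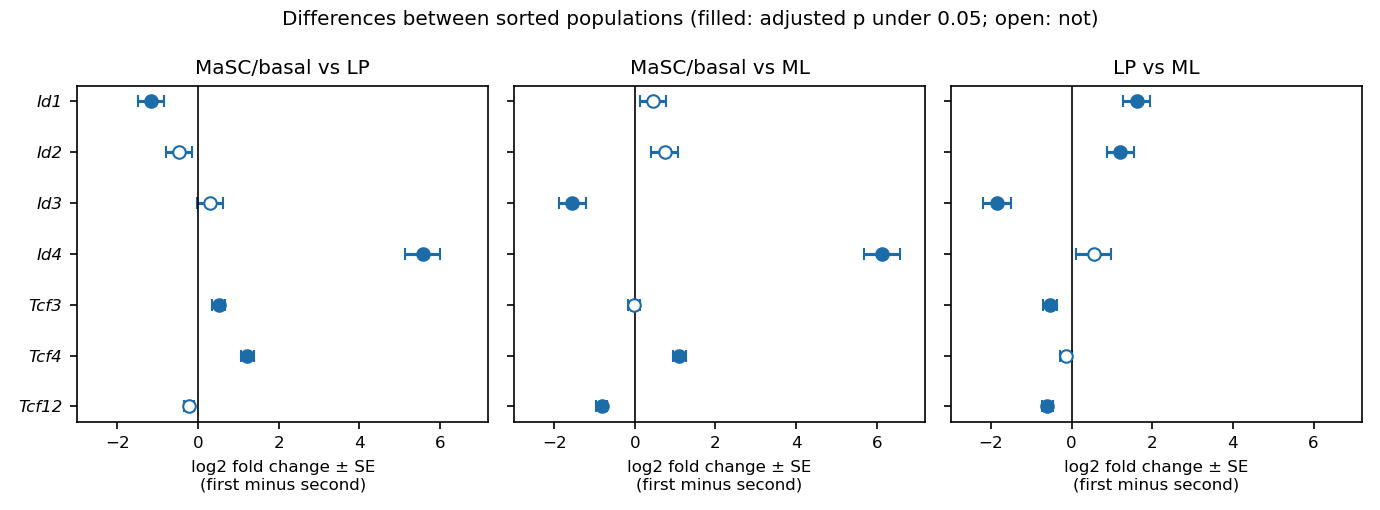
Log2 fold changes (x axis, first population minus second) of the 7 genes in the 3 comparisons of sorted populations, with bars of 1 SE. Filled points passed an adjusted p of 0.05 and open points did not. Id4 is at 5.57 and 6.12 in the comparisons with MaSC/basal cells, and the other 6 genes lie between -1.85 and 1.61 in all comparisons.

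These calls have to be read against how widely the populations differed. Between MaSC/basal and LP cells 4 of the 7 genes were called (Id1, Id4, Tcf3 and Tcf4), against 57.4% of all 15422 genes tested. Of these, 3 were higher in MaSC/basal cells (29.4% of all genes) and 1 in LP cells (28.0%), and 3 were called with at least a 2-fold difference (36.4%). Between MaSC/basal and ML cells 4 of 7 were called (58.7% of all genes), 2 higher in MaSC/basal (28.9%) and 2 in ML cells (29.7%), and 3 at 2-fold or more (37.8%). These shares are close to those of all genes. Between LP and ML cells, which differed in fewer genes, 5 of 7 were called (31.8%), 2 higher in LP (14.3%) and 3 in ML cells (17.5%), and 3 at 2-fold or more (16.8%). The last count of 5 fell to 3 without LP replicate 2, ML replicate 1 or ML replicate 3. Without TMM scaling the median of all genes shifted by 0.14 between MaSC/basal and LP and by -0.19 between LP and ML cells on the log2 scale. Genes called between LP and ML cells were then higher in LP cells in 29.4% of cases, against 45.0% with TMM scaling, and the calls of the 7 genes were as given above.

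Within the labelled batches, the differences called for the pooled libraries kept their sign in each batch that holds both populations. In batches 1 and 2, Id4 differed between MaSC/basal and LP cells by 5.86 and 5.08, Tcf4 by 1.44 and 1.13, Id1 by -1.33 and -1.10 and Tcf3 by 0.72 and 0.48 on the log2 scale. Against ML cells the values were 6.31 and 6.39 for Id4, 0.99 and 1.30 for Tcf4, -2.11 and -0.87 for Id3 and -0.92 and -0.64 for Tcf12. Between LP and ML cells, over batches 1, 2 and 3, they were 2.04, 2.17 and 0.96 for Id1, 1.07, 1.27 and 1.23 for Id2, -2.26, -1.58 and -1.63 for Id3, -0.45, -0.61 and -0.54 for Tcf3 and -0.68, -0.55 and -0.56 for Tcf12. No MaSC/basal library was in batch 3.

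Set side by side per kilobase, the pool of Id transcripts differed in make-up between populations, while its size overlapped. The 4 Id genes summed to 139, 215 and 113 RPKM in MaSC/basal, 108, 159 and 148 RPKM in LP and 178, 123 and 181 RPKM in ML libraries, and the groups overlapped. In MaSC/basal cells Id2 and Id4 had mean shares of 31.3% and 31.7%, Id3 25.8% and Id1 11.2%. Id2 led in LP cells with 46.7%, followed by Id1 with 28.1% and Id3 with 24.5%, and Id4 had 0.752%. Id3 made up 72.6% of the pool in ML cells, against 19.2% for Id2, 7.73% for Id1 and 0.475% for Id4.

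**Figure D3:**
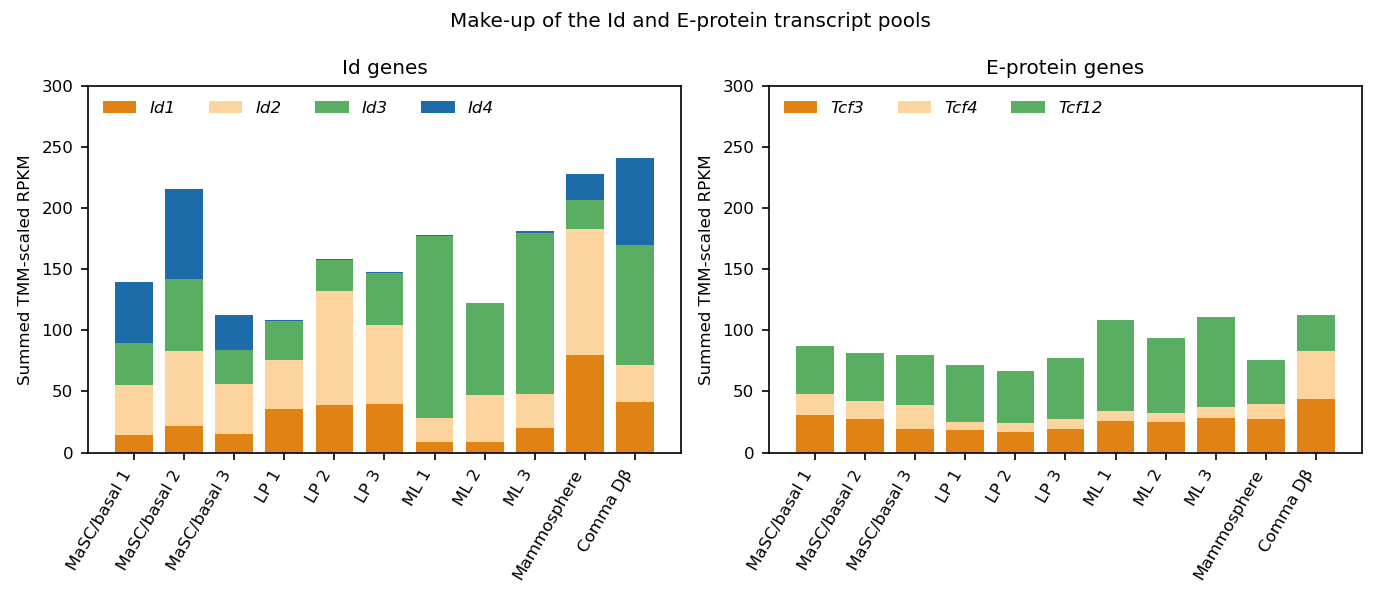
Summed TMM-scaled RPKM (y axis, from 0) of the 4 Id genes (left) and the 3 E-protein genes (right) in each of the 11 libraries, with 1 colour per gene in a stacked bar. Id4 is visible in MaSC/basal, mammosphere and Comma Dβ bars and nearly absent from the LP and ML bars, where its share is 0.837% or less.

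The pool of E-protein transcripts was smaller. It summed to 82.9 ± 4.20 RPKM in MaSC/basal cells, 71.9 ± 5.44 RPKM in LP cells and 104 ± 9.10 RPKM in ML cells (SD, n = 3). Tcf12 had the largest mean share in each, with 47.9%, 64.3% and 66.9%. Tcf3 had 31.3%, 25.5% and 25.4%, and Tcf4 20.8%, 10.3% and 7.69%. The ratio of the Id sum to the E-protein sum, a description with no test, was 1.59, 2.65 and 1.42 in MaSC/basal libraries, 1.51, 2.39 and 1.91 in LP libraries and 1.63, 1.30 and 1.64 in ML libraries. These ranges overlapped, with means of 1.88 ± 0.666, 1.93 ± 0.438 and 1.53 ± 0.192. The ratio is one of transcripts per length and not of proteins.

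In mammosphere cells, MaSC/basal cells after 1 week in culture, Id1 reached 72.6 CPM and Id2 132 CPM, each above all 9 sorted libraries. Id1 was 2.25 above the MaSC/basal mean on the log2 scale and Id2 1.14. Id4 had 35.3 CPM, which was 1.14 below the MaSC/basal mean on that scale (log2 difference -1.14, or -0.82 without MaSC/basal replicate 2) and below the lowest MaSC/basal library, but above all luminal libraries. Id3 had 22.3 CPM (-0.72), just under the sorted range. Among the E-protein genes, Tcf3 had 97.4 CPM (0.10), within the MaSC/basal range, Tcf4 91.4 CPM (-0.52) and Tcf12 185 CPM (-0.12). Of the 7 genes, 2 were at least 2-fold higher than the MaSC/basal mean and 1 at least 2-fold lower, where 19.7% and 20.0% of all genes were. The mammosphere ratio of Id to E-protein transcripts was 3.00, the highest of the 11 libraries. Id2 made up 45.4% and Id1 35.0% of its Id pool, Id3 10.3% and Id4 9.34%. Fibroblast markers summed to 2409 CPM in this library, against 582 to 863 CPM in MaSC/basal libraries, and pericyte markers to 210.0 CPM. Most of the pericyte sum came from Pdgfrb (150.8 CPM) and Cspg4 (54.3 CPM). The fibroblast marker Dcn (98.5 CPM) and the pericyte marker Rgs5 (1.13 CPM) were below every MaSC/basal library. The part of fibroblasts and pericytes in these levels was not tested.

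Comma Dβ cells expressed Id4 at 119 CPM, within the MaSC/basal range and unlike the luminal populations (0.60 above the MaSC/basal mean). Tcf4 had 300.1 CPM, the highest level of any library (1.19), as had Tcf3 with 157 CPM (0.78). Id1 had 37.7 CPM (1.31) and Id3 93.4 CPM (1.34), both above every MaSC/basal library. Id2 had 38.7 CPM (-0.62) and Tcf12 149 CPM (-0.43), the latter below all sorted libraries. With 3 genes at least 2-fold higher than the MaSC/basal mean (16.9% of all genes) and 0 at least 2-fold lower (24.8%), the line had an Id to E-protein ratio of 2.14. Tcf3 led its E-protein pool with 39.2%, against 34.7% for Tcf4 and 26.2% for Tcf12, whereas Tcf12 led in the other 10 libraries. Cycling markers summed to 1329 CPM in Comma Dβ and 235 CPM in mammosphere cells, fibroblast markers to 3667 CPM and pericyte markers to 342 CPM in Comma Dβ. Pdgfrb alone gave 341 CPM of that pericyte sum. The other pericyte markers, Rgs5, Cspg4, Abcc9 and Kcnj8 (0.884, 0.476, 0.272 and 0.034 CPM), were below every MaSC/basal library. So were the fibroblast markers Dcn (91.4 CPM) and Lum (0.680 CPM). The part of cycling or of other cell types in the line's levels was not tested.

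Over all 11 libraries Id4 had an SD of 3.00 in log2 CPM, larger than that of 98.4% of the genes tested. The SDs of Id1 (1.02), Id3 (0.97), Tcf4 (0.80) and Id2 (0.74) were above the median gene (0.65), and those of Tcf12 (0.43) and Tcf3 (0.40) below it. The genes whose profile was most like that of a member were taken by the smallest root mean square difference of log2 CPM, each centred on its own mean, over the 11 libraries. For Id4 these were Gas1 (0.411), Kcnk2 (0.489) and Bves (0.562), and mean Gas1 was 164 CPM for MaSC/basal, 5.15 CPM for LP and 3.09 CPM for ML cells, beside 88.6 CPM for mammosphere and 246 CPM for Comma Dβ cells. For Id3 they were Tmcc2 (0.309), the homeobox factor Meis1 (0.333) and Pitpnm2 (0.391), for Id1 Zfp970 (0.422), Mir31 (0.470) and Zfp354a (0.484), and for Id2 Mospd1 (0.362), Spidr (0.367) and Fam117b (0.388). Those of the E-protein genes were closer. Tcf4 was most like Cacybp (0.176), Ccdc102a (0.190) and Pphln1 (0.203), Tcf12 most like Mgrn1 (0.105), Smpd2 (0.113) and Idnk (0.119), and Tcf3 most like Lias (0.113), Mrpl30 (0.116) and 1110059E24Rik (0.120). In the 9 sorted libraries alone, Tmcc2 was again closest to Id3, and no other of these 21 genes was among the closest 3.

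The other genes of the system were counted from 7 lists and are described beside all 15422 genes tested, whose median log2 difference was -0.01 in each of the 3 comparisons. Genes counted as higher or lower are those called at an adjusted p under 0.05. Of all genes, 29.4% were called higher and 28.0% lower in MaSC/basal than in LP cells, 28.9% higher and 29.7% lower than in ML cells, and 14.3% higher and 17.5% lower in LP than in ML cells. The counts between LP and ML cells were the ones that moved with the processing.

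**Figure D4:**
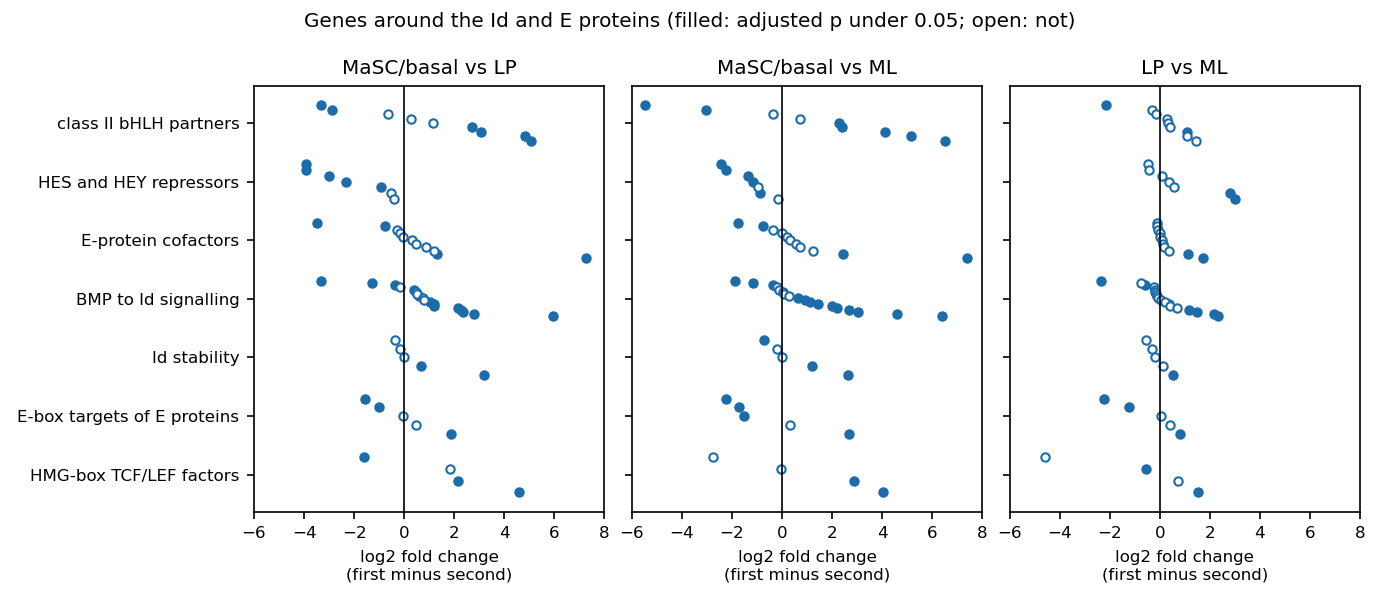
Log2 fold changes (x axis, first population minus second) of the tested genes of 7 lists (y axis) in the 3 comparisons of sorted populations, with 1 point per gene. Filled points passed an adjusted p of 0.05. HES and HEY repressors that passed lie to the left of 0 in both comparisons with MaSC/basal cells, the lowest at -3.94.

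Class II factors, the tissue-restricted partners of E proteins, were mostly at low levels. Of 29 listed, 9 passed the filter. Against LP cells 4 of these were higher and 2 lower in MaSC/basal cells (median 1.16), against ML cells 5 and 2 (median 2.27), where 29.4% and 28.0% and then 28.9% and 29.7% of all genes were. In LP cells 1 was higher and 1 lower than in ML cells (median 0.32), but 1 in all was called without TMM scaling, with limma voom or with either of the other filters. Tcf23 and Tal1 averaged over 0.5 CPM in MaSC/basal cells alone (2.42 and 0.858 CPM). Among the sorted populations, so did Atoh8 (6.91 CPM) and Twist2 (0.557 CPM). Msc averaged over 0.5 CPM in LP and ML cells (1.11 and 4.73 CPM) but not in MaSC/basal cells. All of these passed the filter with the groups in which they were high. Against a sorted group below that level they could thus be counted only as higher. Without any 1 MaSC/basal replicate, 4 genes were called against LP cells in place of 6, and 5 against ML cells in place of 7. Tcf23, a factor related to Tcf21, had 2.42 ± 0.517 CPM in MaSC/basal and 0.029 ± 0.0161 CPM in ML cells (6.52 ± 0.49, adjusted p = 2.35e-06). Atoh8 had 6.91 ± 3.29 CPM in MaSC/basal and 0.212 ± 0.134 CPM in ML cells (5.15 ± 0.51, adjusted p = 1.39e-05). Msc, which encodes musculin, went the other way, with 0.103 ± 0.057 CPM in MaSC/basal and 4.73 ± 1.79 CPM in ML cells (-5.46 ± 0.55, adjusted p = 1.57e-05).

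HES and HEY repressors, basic helix-loop-helix factors many of which act downstream of Notch, had 9 genes listed and 7 tested. The list also holds Bhlhe40 and Bhlhe41, which are not HES or HEY genes. Both were tested, and Bhlhe41 is counted below among the genes lower than in ML cells (-0.87 ± 0.21). None was higher in MaSC/basal cells, and 5 were lower than in LP cells (median -2.32) and 5 lower than in ML cells (median -1.14), against 28.0% and 29.7% of all genes. Hey1 had 11.5 ± 4.32 CPM in MaSC/basal and 176 ± 38.8 CPM in LP cells (-3.94 ± 0.49, adjusted p = 7.36e-05). Hey2 had 0.901 ± 0.404 and 13.9 ± 6.31 CPM (-3.94 ± 0.45, adjusted p = 4.18e-05), and Heyl 2.27 ± 0.679 and 18.2 ± 7.12 CPM (-3.01 ± 0.58, adjusted p = 0.00131). In LP cells 2 of the genes were higher than in ML cells and 0 lower (median 0.36).

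Cofactors of E-protein complexes, among them LIM-only proteins that bridge them to LDB1 and acetyltransferases they recruit, had 12 genes listed and 11 tested. In the comparisons of MaSC/basal with LP and with ML cells 2 were higher and 2 lower (median 0.33 in both), and LP cells had 2 higher and 0 lower than ML cells (median 0.09). Lmo1 had 91.8 ± 10.8 CPM in MaSC/basal and 0.544 ± 0.276 CPM in ML cells (7.38 ± 0.43, adjusted p = 5.04e-07). Lmo4 had 191 ± 52.3 and 35.2 ± 3.95 CPM (2.44 ± 0.24, adjusted p = 1.30e-05). Lmo2 was instead higher in LP cells, with 1.24 ± 0.391 CPM in MaSC/basal and 14.1 ± 2.60 CPM in LP cells (-3.50 ± 0.41, adjusted p = 5.49e-05).

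BMP signalling, which induces Id genes through SMAD1, SMAD5 and SMAD9, had 20 genes listed and 18 tested. In MaSC/basal cells 10 were higher and 3 lower than in LP cells (median 0.78), against 29.4% and 28.0% of all genes. Compared with ML cells 10 were higher and 3 lower (median 0.79), against 28.9% and 29.7% of all genes, and LP cells had 5 higher and 2 lower than ML cells (median 0.01). The list mixes genes that carry the signal with inhibitors of it, so these counts give no direction of signalling. The inhibitor genes Nog, Smad6, Smad7 and Bambi were among those higher in MaSC/basal cells, by 2.80, 2.34, 1.19 and 1.18 against LP cells. Against ML cells they were higher by 3.02, 2.19, 1.14 and 2.68. Nog averaged over 0.5 CPM in MaSC/basal cells alone, and among the sorted populations so did Smad9. The limit from the filter given above for class II factors holds for both. The ligand gene Bmp7 had 150.6 ± 26.7 CPM in MaSC/basal and 1.86 ± 0.803 CPM in ML cells (6.39 ± 0.45, adjusted p = 1.53e-06). A different ligand gene, Bmp2, was higher in LP cells, with 26.0 ± 5.89 CPM against 2.60 ± 0.392 CPM in MaSC/basal cells (-3.33 ± 0.25, adjusted p = 2.99e-06). Smad9 had 1.86 ± 0.750 CPM in MaSC/basal and 0.0758 ± 0.0176 CPM in ML cells (4.58 ± 0.48, adjusted p = 2.01e-05).

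For the stability of ID proteins, 5 genes were listed and all were tested. MaSC/basal cells had 2 higher and 0 lower than LP cells (median 0.00), 2 higher and 1 lower than ML cells (median -0.01), and LP cells 1 higher and 0 lower than ML cells (median -0.20). Usp1, a deubiquitinase known to stabilise ID proteins, had 40.9 ± 9.33 CPM in MaSC/basal and 17.8 ± 1.80 CPM in ML cells (1.20 ± 0.17, adjusted p = 0.000178). Cdc20, an activator of the anaphase-promoting complex, had 44.5 ± 16.2 CPM in MaSC/basal and 4.90 ± 0.808 CPM in LP cells (3.19 ± 0.27, adjusted p = 6.53e-06), beside the higher cycling markers of MaSC/basal libraries given above. Fzr1, the other activator, had 31.9 ± 5.35 CPM in MaSC/basal and 51.7 ± 4.24 CPM in ML cells (-0.70 ± 0.16, adjusted p = 0.00389).

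Among 5 genes known to be regulated by E proteins through E-boxes, all tested, 1 was higher and 2 lower in MaSC/basal than in LP cells (median -0.06). Against ML cells 1 was higher and 3 lower (median -1.53), and LP cells had 1 higher and 2 lower than ML cells (median 0.05). The list was not split by whether E proteins raise or lower a gene, so these counts give no direction of E-protein activity. Cdh1 was among the lower genes in both comparisons of MaSC/basal cells (-1.58 ± 0.19 against LP and -1.53 ± 0.19 against ML cells). Among the sorted populations Cdkn2a averaged over 0.5 CPM in ML cells alone. Cdkn1c, which encodes the inhibitor p57, had 14.8 ± 1.10 CPM in MaSC/basal and 2.32 ± 0.464 CPM in ML cells (2.68 ± 0.23, adjusted p = 5.35e-06). Cdkn2b, which encodes a further inhibitor of cyclin-dependent kinases, had 0.521 ± 0.165 and 2.48 ± 1.04 CPM (-2.22 ± 0.37, adjusted p = 0.000514). Cdkn2a was lower in LP (0.396 ± 0.371 CPM) than in ML cells (1.77 ± 1.43 CPM), at -2.21 ± 0.69 on the log2 scale (adjusted p = 0.0346), a call that was lost when 1 of 5 libraries was left out (log2 differences of -1.40 to -2.21 in those fits).

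The HMG-box factors of similar name were counted apart from their namesakes. Of 4 listed and tested, 2 were higher and 1 lower in MaSC/basal than in LP cells (median 1.99), 2 higher and 0 lower than in ML cells (median 1.41), and 1 higher and 1 lower in LP than in ML cells (median 0.10). Tcf7 had 141 ± 13.2 CPM in MaSC/basal and 5.87 ± 1.15 CPM in LP cells (4.58 ± 0.19, adjusted p = 1.53e-07). Tcf7l1, the older Tcf3, had 68.6 ± 12.3 CPM in MaSC/basal and 9.22 ± 4.04 CPM in ML cells (2.88 ± 0.29, adjusted p = 1.65e-05). Against LP cells Tcf7l1 was also higher in MaSC/basal cells (2.14 ± 0.28), the same sign as the E-protein gene Tcf3 (0.51 ± 0.17). Tcf7l2, the older Tcf4, had 42.1 ± 3.08 CPM in MaSC/basal and 127 ± 36.7 CPM in LP cells (-1.59 ± 0.20, adjusted p = 8.58e-05), opposite in sign to the E-protein gene Tcf4 in the same comparison.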

How the data were processed

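RNA-seq data of 11 libraries were used. Single-end reads had been mapped by the authors to mm10 (GRCm38) using Rsubread, and featureCounts gave the raw counts per Entrez gene that were deposited, without normalization, beside an exon length for each gene. The handling of reads mapping to several genes was not given in the sources used here. The TruSeq kit does not mark strand. Symbols and coordinates were taken from RefSeq (GRCm38.p6) for 25275 genes and from GENCODE for 18, and 1886 genes had no symbol. Sequences came from GENCODE vM21 transcripts.

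The test was the quasi-likelihood test of edgeR 4.0.16 (R 4.3.3) with TMM factors, on the 15422 genes that exceeded 0.5 CPM in 3 or more libraries. The model had 1 mean per sample type (5 in all) and was fitted to all 11 libraries. Genes were called at an adjusted p (Benjamini-Hochberg over all genes tested) under 0.05. SE is the log2 fold change divided by the square root of the F statistic. Mammosphere and Comma Dβ values are differences in log2 CPM (prior count 2) from the mean of the MaSC/basal libraries, with no test. Up to 3 genes a list were named, those with the largest called change. The members and lists were chosen with earlier results of these data known.

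Library batch, given in the labels, was tried as a replicate block. Deviations from the group means correlated between LP and ML libraries of the same batch (0.315, 0.29 and 0.479) and less between different batches (-0.368 to 0.0709). With MaSC/basal libraries they were 0.213 and 0.184 in batch 1 and -0.104 to 0.261 in batch 2. No replicates agreed within sampling noise. Other alternatives were limma voom (limma 3.58.1), DESeq2 1.42.0 as test or for size factors alone, omission of TMM scaling, other filters, the 9 sorted libraries alone and leaving out each replicate. On simulated counts of 15422 genes, edgeR recovered 191 of 200 genes given a log2 difference of 2 between MaSC/basal and LP cells, with 9 false calls. Only those 200 genes differed in the simulation, whereas 57.4% of genes were called in the data. Smaller differences were not simulated, so the recovery of those reported here was not measured.

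A level of 0.5 CPM is 9.37 reads in the shallowest library. P-values weigh the difference between populations against the spread between samples of the same type, estimated over all sample types. The main test took all libraries as independent, also those of the same batch.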

Additional observations from a re-analysis of the deposited data

How the results depend on the processing

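Of 378 tests of the 7 genes under the alternatives, 358 stayed on the same side of the threshold, 12 lost the call and 8 gained it. Among called results 0 changed direction. Differences that were not called could change sign. Id3 between MaSC/basal and LP cells went from 0.30 to -0.06 without MaSC/basal replicate 2. Tcf3 between MaSC/basal and ML cells went from -0.02 to 0.16 without MaSC/basal replicate 3. For 16 of the 21 comparisons of a gene no alternative changed the call. The exceptions were Tcf3 (MaSC/basal and ML against LP), Id2 (ML against LP and MaSC/basal) and Id1 (MaSC/basal against ML), and the cause was not tested. Leaving out 1 replicate, the number of called genes ranged from 3 to 5 between LP and ML cells. Id2 was also called between MaSC/basal and ML cells by the Wald test of DESeq2 (0.76, adjusted p = 0.0424). On the simulated counts DESeq2 gave 48 false calls in this comparison, against 10 for edgeR. With edgeR, Id2 was called there without ML replicate 2 (1.02, adjusted p = 0.0282) and without LP replicate 1 or 2 (0.75 each). Under the replicate block by library batch, the other calls of the 7 genes were unchanged in the fit of 11 libraries, and in the fit of the 9 sorted libraries Id1 was also called between MaSC/basal and ML cells (0.73, adjusted p = 0.0483).

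The Id to E-protein ratio without length correction was 0.471 in MaSC/basal, 0.43 in LP, 0.316 in ML, 0.701 in mammosphere and 0.476 in Comma Dβ cells, which follows from the longer E-protein transcripts. Without Id3 the ratio was 1.48 in LP, 0.406 in ML and 1.27 in Comma Dβ cells. Without TMM scaling, the median gene was 0.21 (mammosphere) and 0.30 (Comma Dβ) above the MaSC/basal mean, Tcf12 in mammosphere cells was 0.11 above it in place of -0.12, Id4 there was -0.92, no longer 2-fold lower, and Tcf3 in Comma Dβ cells was 1.07, then 2-fold higher. Without MaSC/basal replicate 2, Id4 in mammosphere cells was -0.82, so that 0 genes were 2-fold lower there.

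Of 378 counts of called list genes under the alternatives, 31 moved by over 1.5 times, all of them between LP and ML cells and the cause not tested: class II factors from 2 to 1, HES and HEY repressors from 2 to 4, stability genes from 1 to 0, E-box targets from 3 to 1 (without LP replicate 1) or 0 (without LP replicate 2 or ML replicate 3) and HMG-box factors from 2 to 1 or 4.

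Cultured cells rest on 1 library each, and Id4 in luminal cells on 30 to 118 reads a library.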

Other observations

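Some partner and pathway genes stood out in a cultured library, and they were picked after their values had been seen. The mammosphere library had 12.4 CPM of Myog and 3.51 CPM of Myod1, class II factors of skeletal muscle, whereas the means of the sorted populations were at most 0.0707 and 0.0848 CPM. Neither passed the filter on low counts. Twist1 and Twist2, class II factors known from mesenchymal cells, had 42.6 and 18.8 CPM in Comma Dβ and 4.98 and 10.3 CPM in mammosphere cells, against means of at most 1.03 and 0.557 CPM in sorted cells. The BMP antagonist gene Grem1 had 53.1 CPM in Comma Dβ and 22.1 CPM in mammosphere cells, against at most 0.245 CPM. Cdkn2a had 219.7 CPM and Usp1 138 CPM in Comma Dβ cells. These values come from 1 library each.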
